A study of Mus musculus with 230 samples.

Results

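The ventral tegmental area (VTA) was compared between male C57BL/6J mice (The Jackson Laboratory) after cocaine self-administration and after saline self-administration, with tissue taken after 24 h of withdrawal and no challenge injection. The cocaine group is called C24 and the saline group S24. The libraries were chosen as those of the VTA whose challenge label was none, and the label for the self-administered solution set the group: 6 C24 and 6 S24 libraries, or 12 of the 230 libraries of the series. The strain and sex were the same in both groups, the age of the mice is not given in the sources used here, and no transgene or genotype is named. The other VTA groups of the series, taken 1 h after a challenge injection at 30 d of withdrawal, entered only the estimate of the spread, and the other 5 regions served to ask whether a VTA difference was larger than elsewhere. They are abbreviated as BLA (basolateral amygdala), CPu (dorsal striatum), NAc (nucleus accumbens), PFC (prefrontal cortex) and vHipp (ventral hippocampus).

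The VTA lies in the midbrain and holds dopamine neurons that project to the nucleus accumbens and prefrontal cortex, together with GABA and glutamate neurons. Cocaine blocks the dopamine transporter, which dopamine neurons use to take dopamine back up, and the VTA is a site of early synaptic changes after cocaine. Interferons are secreted signals that act through JAK kinases and interferon regulatory factors on a set of target genes, which include guanylate-binding proteins, immunity-related GTPases and the genes of class I antigen presentation. Glucocorticoids, the steroid hormones of the stress response, act through nuclear receptors on another set of targets.

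The deposited values were counts of reads per gene, which totalled 19570662 to 32520635 in the 12 libraries. Levels are given as CPM (counts scaled to a common library total) after scaling by the trimmed mean of M-values (TMM), and differences as log2 fold changes, C24 over S24, with the standard error (SE) of the fit. The number in a library's title recurs over regions and was taken as the mouse, but the labels do not say that each number is a separate animal, so p-values measure the spread between libraries. Of the dopamine neuron markers all 30 were measured, and the defining ones were abundant in every library: Th ran from 369 to 888 CPM in C24 and from 344 to 903 CPM in S24. VTA-175, a C24 library, stood apart in transcripts of the leptomeninges and of blood. Its level of Slc13a4, a transporter of leptomeningeal cells, was 67.2 CPM, against 2.84 CPM or less in the other C24 libraries and 4.50 CPM or less in S24. Its level of Hbb-bs, an adult beta globin, was 904 CPM, against at most 122.4 CPM in the other C24 libraries and 124.7 CPM in S24. Results are therefore given with and without it.

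A single gene, Gbp9, was called higher in C24 than in S24, in the fit of all 31 VTA libraries. It encodes a guanylate-binding protein, a GTPase of cell-autonomous defence that interferon induces. Gbp9 had a lowest, median and highest level of 3.28, 4.98 and 8.44 CPM in C24, against 2.61, 2.83 and 3.72 CPM in S24. The C24 library VTA-195 lay below the highest S24 library, VTA-191, and the other 5 C24 libraries lay above all S24 libraries. The C24 mean was 5.36 ± 1.80 CPM and the S24 mean 2.94 ± 0.40 CPM (SD over 6 libraries), and the log2 fold change was 0.87 ± 0.15 (SE; edgeR quasi-likelihood test, adjusted p = 0.0466). In the fit without VTA-175 the fold change was the same, 0.87 ± 0.16, and the adjusted p was 0.0971, above the threshold of 0.05. The call at that threshold was also lost on leaving out other single libraries: the adjusted p was 0.221 without VTA-203, 0.0633 without VTA-214 and 0.207 without VTA-223 of the C24 group, and 0.163, 0.114, 0.249, 0.194 and 0.15 without VTA-182, VTA-193, VTA-201, VTA-204 and VTA-205 of the S24 group. The fold change ran from 0.69 without VTA-223 to 0.97 without VTA-195. The gene lies on the minus strand at chr5:105077630-105139539 (GENCODE M21, build GRCm38). Its exons overlap exons of Gbp4 and Gbp8 on the same strand, and 8.05% of its 50-base stretches also occur in transcripts of other genes, mainly Gbp4, Gbp8 and Gbp6, so its reads cannot be fully told apart from theirs.

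Of 17105 genes tested, 1 was higher in C24 at an adjusted p under 0.05 (0.00585%) and none was lower (0%), in the edgeR test. DESeq2 called the same gene and no other, and limma voom called none; nor did edgeR in a fit of the 12 libraries alone, with 2 surrogate variables or with the blood cell level as a covariate. The next gene by p-value, Sp110, had an adjusted p of 0.317. At an unadjusted p under 0.05, 526 genes were higher in C24 (3.08%) and 142 lower (0.83%). Without VTA-175, 17050 genes were tested and none was called in either direction (0% and 0%), while 355 were higher (2.08%) and 169 lower (0.991%) at an unadjusted p under 0.05. DESeq2 still called 1 gene without that library and limma voom none. All 6 C24 libraries lay above all 6 S24 libraries for 25 genes (0.146%) and below them for 6 genes (0.0351%). Over all genes tested 45.6% had a positive fold change, and the median was -0.0075. These shares are the background for the counts of gene lists that follow. Because tissue was measured in bulk, a lower level can mean fewer cells of a type or less RNA per cell, and these cannot be told apart.

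Among the other guanylate-binding proteins, Gbp2, Gbp2b, Gbp3 and Gbp4 had larger fold changes than Gbp9 and a wider spread between libraries. Of 11 listed, 8 were in the table and 7 were tested: 6 had positive fold changes, all 6 at an unadjusted p under 0.05, and Gbp11 had a fold change of -0.41 ± 0.25. The median of the 7 was 1.05, and 1.10 without VTA-175, with the same counts. Gbp3 had a lowest, median and highest level of 4.204, 5.61 and 14.5 CPM in C24, against 2.90, 3.35 and 5.42 CPM in S24. Its fold change was 1.05 ± 0.26 (edgeR, adjusted p = 0.537). Gbp2 had 2.27, 4.95 and 16.3 CPM in C24, against 1.84, 2.67 and 4.69 CPM in S24, and Gbp7 had 5.19, 6.71 and 13.4 CPM in C24, against 4.61, 5.004 and 5.78 CPM in S24. In each of these genes VTA-223 was the highest library and VTA-203 the next, and the other 4 C24 libraries lay among or just above the S24 libraries. Gbp4 showed this most: it had 30.8 CPM in VTA-223 and 16.9 CPM in VTA-203, against 2.22 to 5.01 CPM in the other 4 C24 libraries and 1.29 to 6.18 CPM in S24. Its fold change of 1.95 ± 0.56 (edgeR, adjusted p = 0.575) was 1.23 without VTA-223.

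The promoters of 3 of these genes and of the antiviral gene Rsad2 are shown because they share a short element that interferon-activated factors can bind. The windows run from 250 bases before to 50 bases after the annotated start (RefSeq, GRCm38.p6), printed 5′ to 3′ on the gene's strand, with the interferon-stimulated response element (ISRE, searched as GAAANNGAAA on both strands) in capitals. All ISRE matches lay on the opposite strand, so they are printed as the reverse complement, and none overlapped a match to the other motif searched.
Gbp2, chr3:142620413-142620712, plus strand: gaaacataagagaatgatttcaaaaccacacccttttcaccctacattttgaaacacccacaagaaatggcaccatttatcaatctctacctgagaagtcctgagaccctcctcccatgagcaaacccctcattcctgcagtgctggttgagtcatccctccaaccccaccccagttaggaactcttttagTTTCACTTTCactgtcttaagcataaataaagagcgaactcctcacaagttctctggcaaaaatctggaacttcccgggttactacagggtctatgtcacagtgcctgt
Gbp3, chr3:142559794-142560093, plus strand: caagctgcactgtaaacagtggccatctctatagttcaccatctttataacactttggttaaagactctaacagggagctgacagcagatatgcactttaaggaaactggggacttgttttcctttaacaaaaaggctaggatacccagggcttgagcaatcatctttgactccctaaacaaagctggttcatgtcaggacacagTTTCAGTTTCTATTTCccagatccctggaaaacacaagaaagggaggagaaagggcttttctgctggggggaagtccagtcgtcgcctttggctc
Gbp7, chr3:142530086-142530385, plus strand, where the capitals further from the start are 2 matches to the gamma-activated site (GAS, searched as TTCNNNGAA): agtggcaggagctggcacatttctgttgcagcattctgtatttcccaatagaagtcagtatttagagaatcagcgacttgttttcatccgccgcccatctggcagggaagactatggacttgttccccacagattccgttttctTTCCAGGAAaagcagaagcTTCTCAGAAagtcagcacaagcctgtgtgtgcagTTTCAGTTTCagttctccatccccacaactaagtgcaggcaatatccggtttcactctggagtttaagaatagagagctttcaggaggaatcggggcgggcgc
Rsad2, chr12:26456403-26456702, minus strand: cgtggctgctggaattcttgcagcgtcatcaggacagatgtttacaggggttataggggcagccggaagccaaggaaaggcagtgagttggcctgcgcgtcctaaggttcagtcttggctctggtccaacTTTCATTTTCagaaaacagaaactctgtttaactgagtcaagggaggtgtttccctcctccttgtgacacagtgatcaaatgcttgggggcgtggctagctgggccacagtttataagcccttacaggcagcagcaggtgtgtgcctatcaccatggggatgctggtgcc
Counting the start as position 0, the ISRE match began at -59 in Gbp2, at -53 in Gbp7 and at -120 in Rsad2. In Gbp3 a pair of overlapping matches began at -45 and -39, and its second window held none. Among other genes named here, the window of Ddx58 held a match, and those of Tnfsf10, Ifi47, Sp110, Bmx and Irf1 held none. Gbp9 and Gbp4 had no window in the promoter set. The table gave promoters for 4 of the 7 tested guanylate-binding proteins, 5 windows in all, of which 4 (80.0%) held an ISRE match. The shares were 5 of 7 windows (71.4%) for the immunity-related GTPases, 5 of 17 (29.4%) for class I antigen presentation and 13 of 34 (38.2%) for the antiviral list. Over all genes tested 471 of 15939 windows (2.96%) held one, and over the whole promoter set 3.44% did. The GAS was in 6.81% and 8.30% of these. By list, the GAS was in 20% of windows for the guanylate-binding proteins and 57.1% for the immunity-related GTPases. The shares were 11.8% for class I antigen presentation and 26.5% for the antiviral list. A match describes these letters and not a bound site.

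The immunity-related GTPases, which act on membranes of internalised pathogens in mice, followed the same libraries. All 9 listed were tested; 8 had positive fold changes, all 8 at an unadjusted p under 0.05, and the median was 1.21 (1.13 without VTA-175). Ifi47 had a lowest, median and highest level of 0.606, 1.48 and 3.80 CPM in C24, against 0.527, 0.656 and 1.09 CPM in S24. Its fold change was 1.25 ± 0.32 (edgeR, adjusted p = 0.537). Irgm1 had 8.13, 10.5 and 20.2 CPM in C24, against 7.04, 9.48 and 10.7 CPM in S24, with its highest values in VTA-223 and VTA-203. The exception was Irgq, at 141 to 156 CPM in C24 and 142.6 to 158 CPM in S24, with a fold change of -0.03 ± 0.04. Reads of Tgtp1 and Tgtp2 (81.2% and 86.6% of their 50-base stretches occur in other genes) and of Gvin1 (99.2%) are uncertain between near-identical copies.

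Class I antigen presentation, by which cells display peptides to T cells, had positive fold changes in 17 of 17 tested genes, 10 of them at an unadjusted p under 0.05. The median was 0.42, and 0.34 without VTA-175, where 16 of 17 were positive and 8 passed the unadjusted threshold; without VTA-203 the median was 0.27. Psmb8, a subunit of the immunoproteasome, had a lowest, median and highest level of 1.504, 2.19 and 5.04 CPM in C24, against 0.984, 1.39 and 2.63 CPM in S24. H2-K1, a class I heavy chain, had 26.9, 40.9 and 79.0 CPM in C24, against 23.6, 25.5 and 46.5 CPM in S24. The C24 libraries split for H2-K1: VTA-175, VTA-203 and VTA-223 held 51.8, 79.0 and 68.2 CPM, and the other 3 held 26.9 to 30.0 CPM, inside the S24 range. Class I heavy chain genes share sequence, so their counts are not fully separate. Of the 50-base stretches of H2-K1, H2-D1 and H2-T22, 9.63%, 12.8% and 34.5% also occur in other genes. B2m, the light chain that all class I molecules share, had 61.9, 93.5 and 153 CPM in C24, against 55.1, 71.8 and 92.5 CPM in S24.

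Of the genes of interferon signalling and antiviral defence, 39 of 41 listed were tested. Positive fold changes were found for 34, of which 17 passed an unadjusted p of 0.05, and no negative one did; the median was 0.24 (0.23 without VTA-175, with 14 passing). Rsad2, which encodes the antiviral enzyme viperin, had a lowest, median and highest level of 1.07, 2.07 and 7.50 CPM in C24, against 0.671, 1.084 and 1.42 CPM in S24. The highest was VTA-175, and the fold change of 1.46 ± 0.34 became 0.92 ± 0.27 without it (edgeR, adjusted p = 0.537 with all libraries). Ddx58, whose product RIG-I senses viral RNA, ran from 6.66 to 9.40 CPM in C24, against 5.70 to 6.18 CPM in S24. The groups did not overlap, and the fold change was 0.39 ± 0.11 (edgeR, adjusted p = 0.553). Tnfsf10, which encodes the death ligand TRAIL, had 3.33, 4.50 and 9.76 CPM in C24, against 2.23, 3.06 and 4.28 CPM in S24, with VTA-223 and VTA-203 highest. The transcription factor Irf1 had 4.24, 5.86 and 8.399 CPM in C24, against 3.47, 4.14 and 5.13 CPM in S24; it was picked after its values were seen. The gene of the upstream kinase Jak1 had a fold change of -0.02 ± 0.04.

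**Figure D1:**
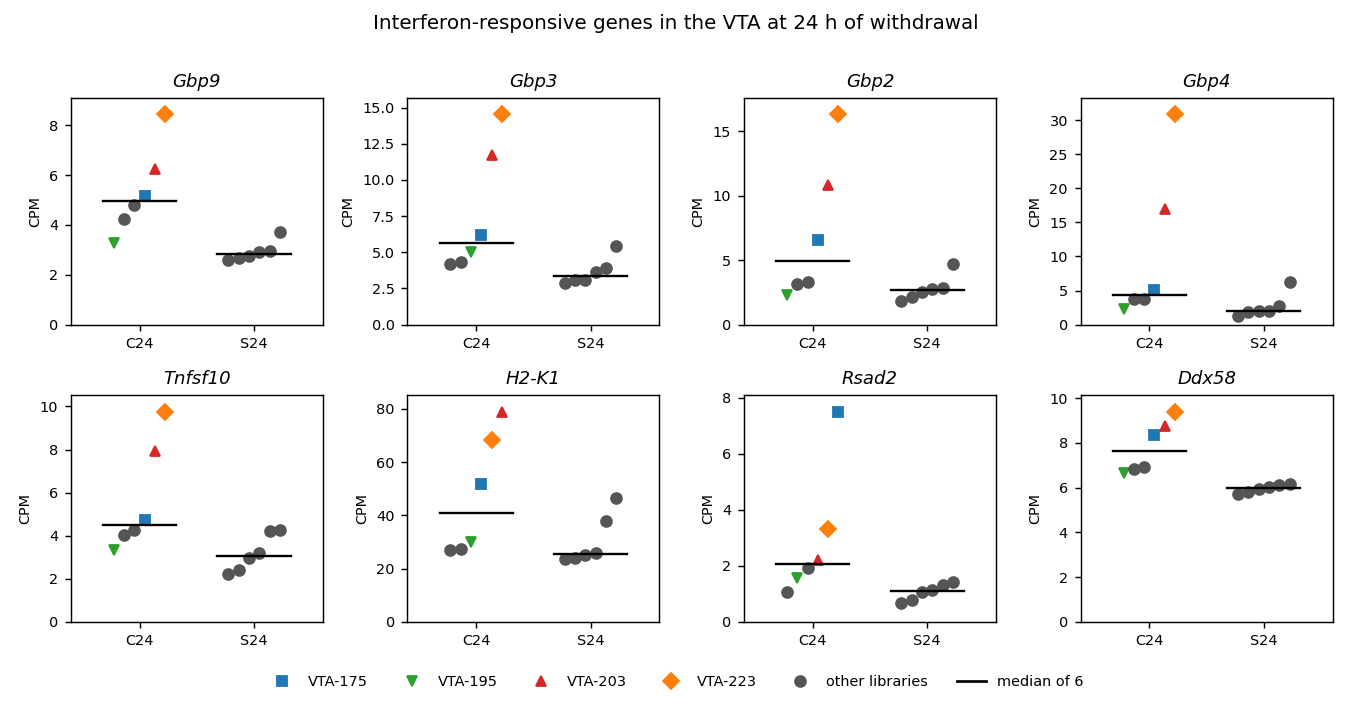
Levels of 8 interferon-responsive genes in the VTA, in CPM on linear axes from 0; each point is 1 library, C24 left and S24 right, and the bar is the median of 6. VTA-223 and VTA-203 are the highest C24 libraries for Gbp9, Gbp3, Gbp2, Gbp4 and Tnfsf10, VTA-175 is the highest for Rsad2, and the groups do not overlap for Ddx58.

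Counted by library, 3 C24 libraries carried most of the interferon pattern. Of the 72 tested genes on the 4 interferon lists, 65 had positive fold changes and 41 passed an unadjusted p of 0.05, all of them higher in C24. VTA-223 lay above every S24 library for 57 of the 72 (79.2%), VTA-203 for 47 (65.3%) and VTA-175 for 42 (58.3%). The counts were 10 (13.9%) in VTA-171, 9 (12.5%) in VTA-195 and 6 (8.33%) in VTA-214. Over all genes tested the shares were 13.9% in VTA-223, 11% in VTA-203, 14.2% in VTA-175, 8.41% in VTA-171, 13.2% in VTA-195 and 9.37% in VTA-214. The shares of the interferon genes lay near these in VTA-195 and VTA-214, and above in VTA-171. The highest of the S24 libraries in the summed level of guanylate-binding proteins was VTA-191, at 30.99 CPM, above VTA-171, VTA-195 and VTA-214. The other S24 libraries held 17.7 to 20.8 CPM, while VTA-223 held 100.4 CPM and VTA-203 72.6 CPM. Blood cell markers were high in VTA-175, where all 10 lay above every S24 library, and in part in VTA-203, where 5 of 10 did (50%); none of the 10 did in VTA-223. The mean log2 level of the 10 was 5.88 in VTA-175, 3.53 in VTA-203 and 3.08 in VTA-223, against 2.03 to 3.21 in S24. Of 25 leptomeningeal markers 25 lay above every S24 library in VTA-175, and 2 in each of VTA-203 and VTA-223 (8%). The part of blood in the interferon levels of VTA-175 and VTA-203 was not tested.

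**Figure D2:**
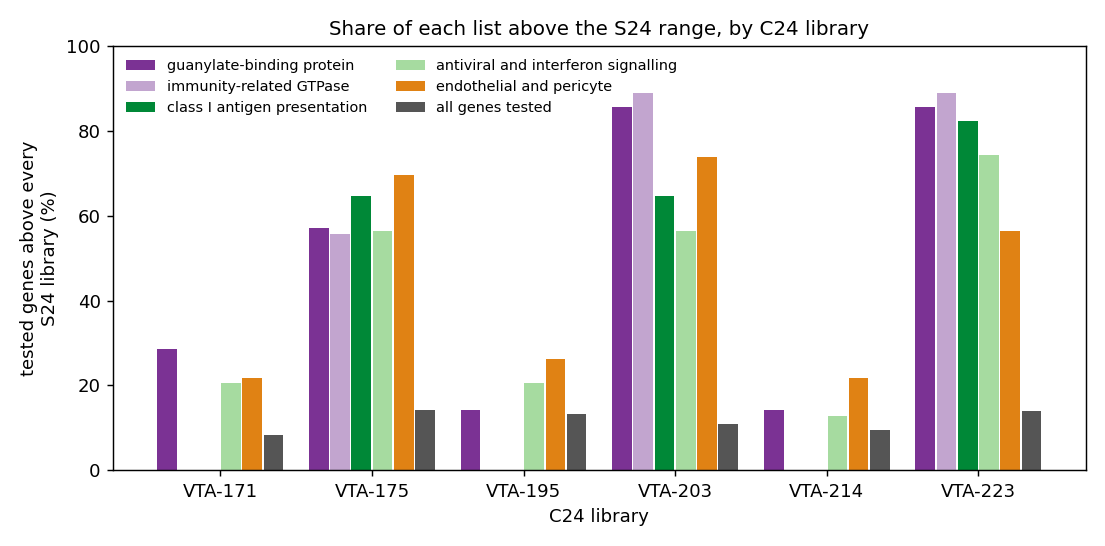
Share of the tested genes of each list, in percent, that lay above all 6 S24 libraries, for each of the 6 C24 libraries; grey bars give the share of all genes tested. In VTA-175, VTA-203 and VTA-223 between 55.6% and 88.9% of each interferon list lay above S24, against 14.2% or less of all genes.

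The mice of VTA-203 and VTA-223 had high levels of Gbp4 outside the VTA too. With levels scaled over the 6 regions together, the mouse of VTA-223 had 30.2 CPM of Gbp4 in the VTA and 21.7 to 31.6 CPM in 5 other regions, and that of VTA-203 had 16.5 CPM in the VTA and 13.8 to 19.7 CPM in 4 others. The mouse of VTA-195, also C24, had 2.16 CPM in the VTA and 1.07 to 1.78 CPM in 4 others. Among S24 mice the highest was that of VTA-191, with 6.07 CPM in the VTA and 4.86 to 8.46 CPM in 5 others. The mouse of VTA-175 had less outside the VTA, at 2.29 to 3.82 CPM, against 4.99 CPM in the VTA. A further C24 mouse, that of NAc-194, had 21.1 to 27.6 CPM in 5 regions and no VTA library here. For Gbp4, every region of the mice of VTA-203 and VTA-223 lay above every region of the other mice with a VTA library. For Gbp9 this did not hold. There NAc-191, of an S24 mouse, had 6.29 CPM, against 6.11 CPM in VTA-203 and 6.22 CPM in NAc-223.

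Whether the VTA differed from elsewhere was tested for each gene as the VTA difference minus the mean difference of the other 5 regions, over the 12 VTA libraries and 75 C24 and S24 libraries of the other regions. No gene passed among 17939 (0%, limma voom), and 169 did at an unadjusted p under 0.05 (0.942%), a count that ran from 159 to 1103 over the alternatives, again with none passing. The Gbp9 difference exceeded that of the other regions by 0.12 ± 0.35, and its fold changes in fits of each region alone were 0.58 in BLA, 0.67 in CPu, 0.74 in NAc, 0.84 in PFC and 0.79 in vHipp. For Gbp4 the VTA difference minus the others was -0.35 ± 0.89. The median of this contrast was -0.14 over the guanylate-binding proteins and -0.06 over the immunity-related GTPases. For Rsad2 the contrast was 0.85 ± 0.39 (adjusted p = 1.00). This fit treats libraries of a mouse as independent, so its SEs hold the spread between mice. Mice without a VTA library, among them that of NAc-194, entered only the other regions, so the mice differ between the sides of the contrast. With the title number as a fixed effect, a fit chosen after seeing the data that takes the contrast within a mouse, again no gene passed. The SE of Gbp4 was then 0.16 and its contrast 0.09, that of Gbp9 was 0.30 ± 0.17, and that of Rsad2 1.05 ± 0.31 (limma voom, adjusted p = 1.00). The medians within mice, over the 8 genes of each list in this fit, were 0.24 for the guanylate-binding proteins and 0.23 for the immunity-related GTPases. The sign of both medians thus differed between the 2 fits. For the guanylate-binding proteins the first median covered only the 7 genes tested in the VTA.

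**Figure D3:**
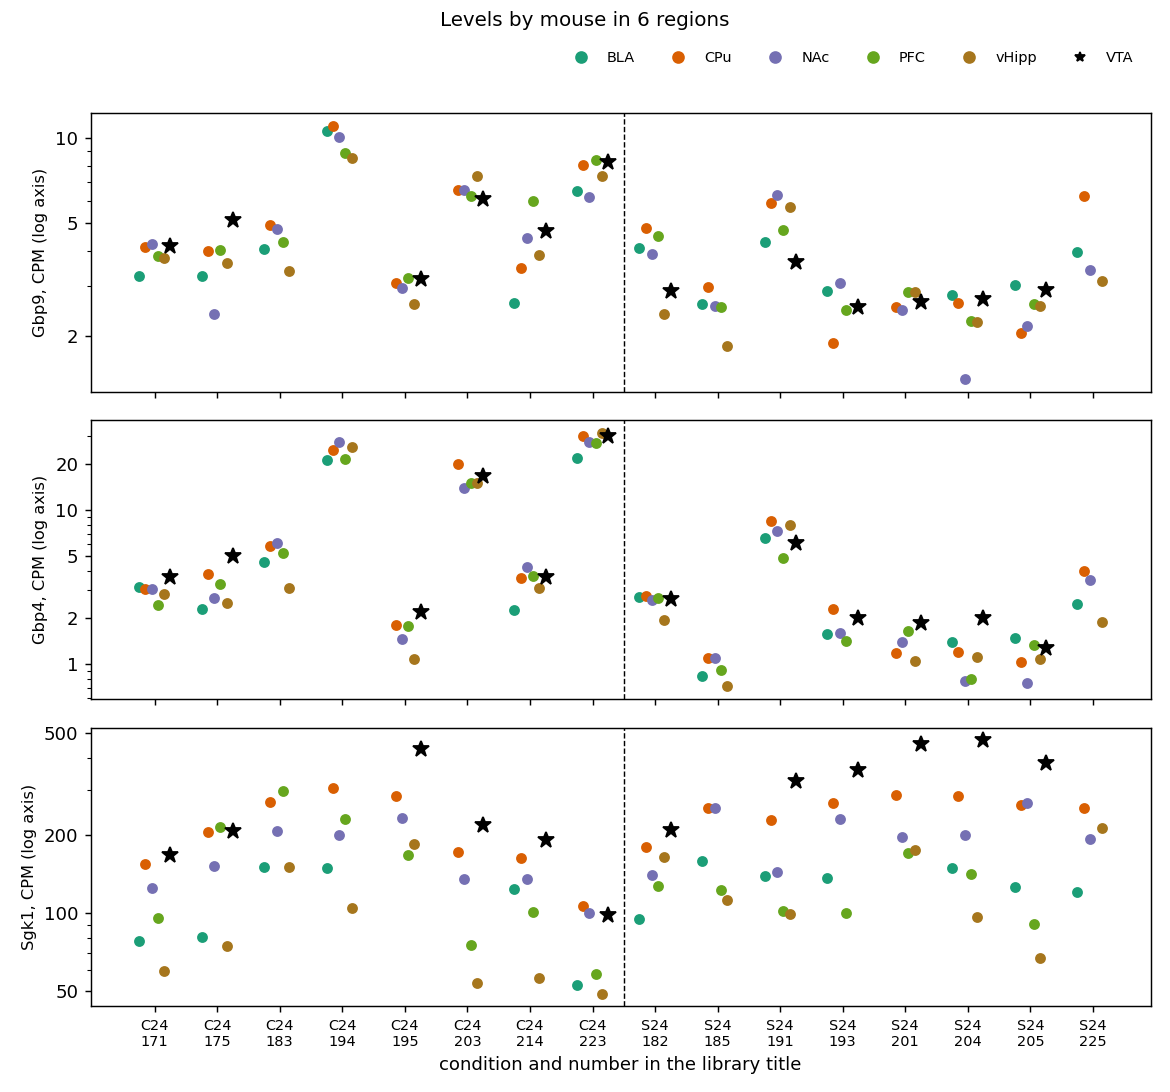
Levels of Gbp9, Gbp4 and Sgk1 by mouse, in CPM on log axes, in 6 regions; C24 mice stand left of the dashed line and S24 mice right, stars are VTA libraries and circles other regions. Gbp4 lies at 13.8 CPM or more in every region measured of 3 C24 mice, those of VTA-203, VTA-223 and NAc-194, and Sgk1 in VTA-223 is the lowest VTA level, at 98.1 CPM.

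Markers of blood vessels had smaller positive fold changes than the GTPases. Of 23 endothelial and pericyte markers 22 had positive fold changes, 11 at an unadjusted p under 0.05, and the median was 0.30; without VTA-175 the median was 0.26, with 21 positive and 9 passing. Abcb1a, the drug efflux pump of the blood-brain barrier, had a lowest, median and highest level of 49.9, 54.4 and 68.4 CPM in C24, against 31.4, 43.8 and 51.9 CPM in S24. Its fold change was 0.41 ± 0.11 (edgeR, adjusted p = 0.537), and 4 of the 6 C24 libraries lay above all S24 libraries. Of the 50-base stretches of Abcb1a 17.6% also occur in Abcb1b or Abcb4, so its count is uncertain to that extent. Slc2a1, the glucose transporter of the same barrier, had a fold change of -0.01 ± 0.12, the only negative one of the list. The share of the 23 markers above every S24 library was 73.9% in VTA-203, 69.6% in VTA-175 and 56.5% in VTA-223, and between 21.7% and 26.1% in the other 3 C24 libraries, so the same 3 libraries had the largest shares as for interferon genes. None of the 23 had groups without overlap. Of the blood cell markers 100% lay above every S24 library in VTA-175 and 50% in VTA-203, but 0% in VTA-223. The share was 0% in VTA-171 and VTA-195 and 20% in VTA-214. The part of blood in the vascular shares was not tested. Acta2, Tagln and Myh11, the contractile genes of arterial smooth muscle, depended on VTA-175: their fold changes of 0.88, 0.78 and 0.61 were 0.38, 0.29 and 0.32 without it.

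The 10 genes with non-overlapping groups, a mean of at least 1 CPM and the smallest p-values were led by Bmx. Bmx, a tyrosine kinase of the TEC family found in arterial endothelium, ran from 1.38 to 2.57 CPM in C24, against 0.687 to 1.25 CPM in S24 (fold change 0.95 ± 0.21; edgeR, adjusted p = 0.483). Nos3, the endothelial nitric oxide synthase, ran from 6.35 to 8.97 CPM in C24, against 4.87 to 6.30 CPM in S24. Pdgfb, the ligand by which endothelium recruits pericytes, ran from 13.6 to 18.2 CPM in C24, against 12.4 to 13.5 CPM in S24. For Bmx and Pdgfb the highest library was VTA-175 and not VTA-223, where Bmx was 1.68 CPM. The others were Ddx58, Zfp217, Ggta1, Shroom4, Kcne4, Pla1a and 2010007H06Rik, whose exons overlap Colca2 on the opposite strand, with fold changes from 0.39 to 1.02. Kcne4, a potassium channel subunit, reached 1.02 only through VTA-175, at 4.17 CPM, and had a fold change of 0.54 without it. The one gene that met the same rule below S24 was Rad51c, which acts in DNA repair, at 3.77 to 4.29 CPM in C24 and 4.32 to 5.25 CPM in S24 (fold change -0.21 ± 0.10).

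Leptomeningeal and blood markers were set by VTA-175. All 25 leptomeningeal markers had positive fold changes, 16 at an unadjusted p under 0.05, with a median of 1.18; without VTA-175, 7 were positive, none passed, and the median was -0.11. Igf2, a growth factor of the leptomeninges, was 289 CPM in VTA-175, against 21.9 to 30.8 CPM in the other C24 libraries and 15.6 to 38.1 CPM in S24. The counts of Igf2 and Hbb-bs are uncertain, since 61.2% and 53.2% of their 50-base stretches occur in another gene. All 10 tested blood cell markers had positive fold changes, 9 passing, with a median of 1.77, against 0.24 and none passing without it. Alas2, which makes haem in red cell precursors, was 66.2 CPM in VTA-175, against 2.73 to 11.1 CPM in the other C24 libraries and 1.92 to 10.2 CPM in S24. Among S24 libraries VTA-193 had the highest leptomeningeal sum, 249.9 CPM, against 105.1 to 147 CPM in the other 5. Microglia markers had a median fold change of 0.13, with 18 of 20 positive and 1 passing, Aif1, and of 0.0057 without VTA-223. Their summed level was 867 CPM in VTA-223 and 715 CPM in VTA-203, against 489 to 551 CPM in the other C24 libraries and 475 to 702 CPM in S24. These libraries are the ones that led the interferon genes, and the part of microglia in those levels was not tested.

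**Figure D4:**
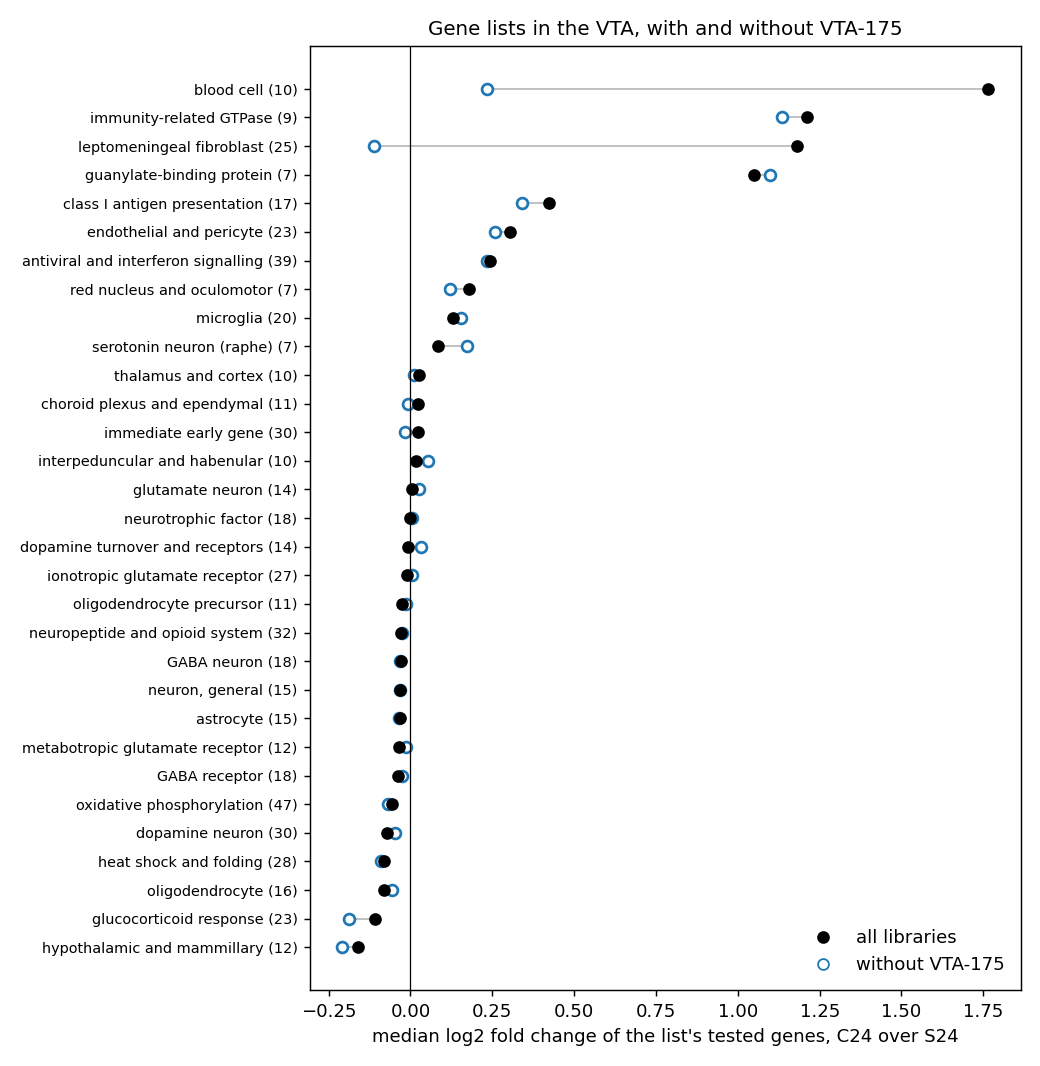
Median log2 fold change, C24 over S24, of the tested genes of 31 lists (number of genes in parentheses), with all libraries (black) and without VTA-175 (open blue). The blood cell and leptomeningeal medians are 0.24 and -0.11 without VTA-175, and those of the guanylate-binding proteins and immunity-related GTPases 1.10 and 1.13.

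Genes that define dopamine neurons did not separate the groups. Of 30 tested, 25 had negative fold changes, none at an unadjusted p under 0.05, and the median was -0.07, which ranged from -0.19 without VTA-223 to 0.00064 without VTA-214. Slc6a3, the dopamine transporter that cocaine blocks, had a lowest, median and highest level of 810, 1229 and 2193 CPM in C24, against 842, 1491 and 2055 CPM in S24 (fold change -0.15 ± 0.26). Th, the rate-limiting enzyme of dopamine synthesis, had a fold change of -0.12 ± 0.26, and the vesicular transporter Slc18a2 of -0.06 ± 0.24. The spread lay within the groups: the summed level of the 30 markers was 10630 CPM in VTA-223 and 5427 CPM in VTA-203, and 9975 CPM in VTA-191 and 5394 CPM in VTA-204. VTA-203 and VTA-223, alike in interferon genes, were thus at opposite ends in dopamine markers. Of the dopamine-linked transcription factors, Nr4a2 was at -0.07 ± 0.22 and Foxa2 at 0.02 ± 0.21. Pitx3, at -0.31 ± 0.32, had the most negative fold change of the 30 markers. The receptor gene Drd2, through which dopamine neurons inhibit themselves, was at -0.13 ± 0.22.

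Markers of neighbouring nuclei differed widely between libraries of both groups. Slc5a7, the choline transporter of motor neurons such as those of the oculomotor nucleus, was 40.3 and 37.8 CPM in VTA-203 and VTA-214, against 1.90 to 8.10 CPM in the other C24 libraries; in S24 it was 70.8 CPM in VTA-204 and 1.51 to 13.3 CPM in the others. Tph2, which makes serotonin in the raphe, ran from 1.41 to 58.9 CPM in C24 and from 1.198 to 74.3 CPM in S24. Both groups spanned most of the range, and no gene of the 5 neighbour lists passed an unadjusted p of 0.05. A fit with the dopamine marker level of each library as a covariate left Gbp9 called (adjusted p = 0.0193, edgeR), and one with the blood cell level did not (adjusted p = 0.227, edgeR). No fit took the neighbour markers as a covariate, so their part was not tested.

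Genes of transmission and of the neuronal response to activity had fold changes near 0. Of 27 ionotropic glutamate receptor genes none passed an unadjusted p of 0.05, and the median was -0.01; of 18 GABA receptor genes none passed either, and the median was -0.04. Gria1, an AMPA receptor subunit, had a fold change of -0.06 ± 0.08, Grin1, the obligatory NMDA receptor subunit, of -0.06 ± 0.07, and Gad2, which makes GABA, of -0.07 ± 0.11. Bdnf, a neurotrophin, was at -0.11 ± 0.14, and Oprk1, the receptor for dynorphin, at -0.03 ± 0.17. Of 30 immediate early genes 19 were positive, with a median of 0.02 (11 and -0.02 without VTA-175), and Fos, induced by neuronal activity, had a fold change of 0.01 ± 0.16. The one that passed the unadjusted threshold was Ptgs2, the inducible cyclooxygenase, at 2.75, 7.07 and 12.04 CPM (lowest, median and highest) in C24, against 1.14, 2.62 and 3.59 CPM in S24. Its groups overlapped through VTA-171 and VTA-195, the lowest C24 libraries, and the fold change was 1.36 ± 0.37 (edgeR, adjusted p = 0.575).

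Most genes that respond to glucocorticoids had lower mean levels in C24. Of 23 tested, 18 had negative fold changes, 7 at an unadjusted p under 0.05 and none in the other direction, and the median was -0.11 (-0.19 without VTA-175, again with 7). The median was -0.21 without VTA-182 and -0.17 without VTA-195. Sgk1, a kinase that glucocorticoids induce, had a lowest, median and highest level of 100.2, 202 and 442 CPM in C24, against 212, 377 and 474 CPM in S24. The groups overlapped through VTA-195, the one C24 library with a high value, and VTA-182, the lowest S24 library; the fold change was -0.73 ± 0.23 (edgeR, adjusted p = 0.714) and -0.72 ± 0.25 without VTA-175. Arrdc2 and Pdk4, picked after their values were seen, had the same libraries out of line with their group. Arrdc2, an arrestin-domain gene, was 64.9 CPM in VTA-195 and 22.2 to 34.8 CPM in the other C24 libraries, against 27.7 CPM in VTA-182 and 44.8 to 73.03 CPM in the other S24 libraries. Pdk4, which holds back glucose oxidation, was 23.3 CPM in VTA-195 and 11.3 to 14.9 CPM in the other C24 libraries, against 11.8 CPM in VTA-182 and 14.9 to 28.6 CPM in the other S24 libraries. Fkbp5, a co-chaperone of the glucocorticoid receptor and one of its best-known targets, had a fold change of -0.05 ± 0.18. In the mouse of VTA-223, the library with the lowest Sgk1, the other 5 regions held 48.7 to 106 CPM, and in the mouse of VTA-195, 4 other regions held 168 to 283 CPM. For Sgk1 the VTA difference minus that of the other regions was -0.52 ± 0.32 (limma voom, adjusted p = 1.00). Over the whole list the same fit gave a median of -0.12 in the VTA and -0.10 over the other regions. The median of the contrast was -0.07.

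**Figure D5:**
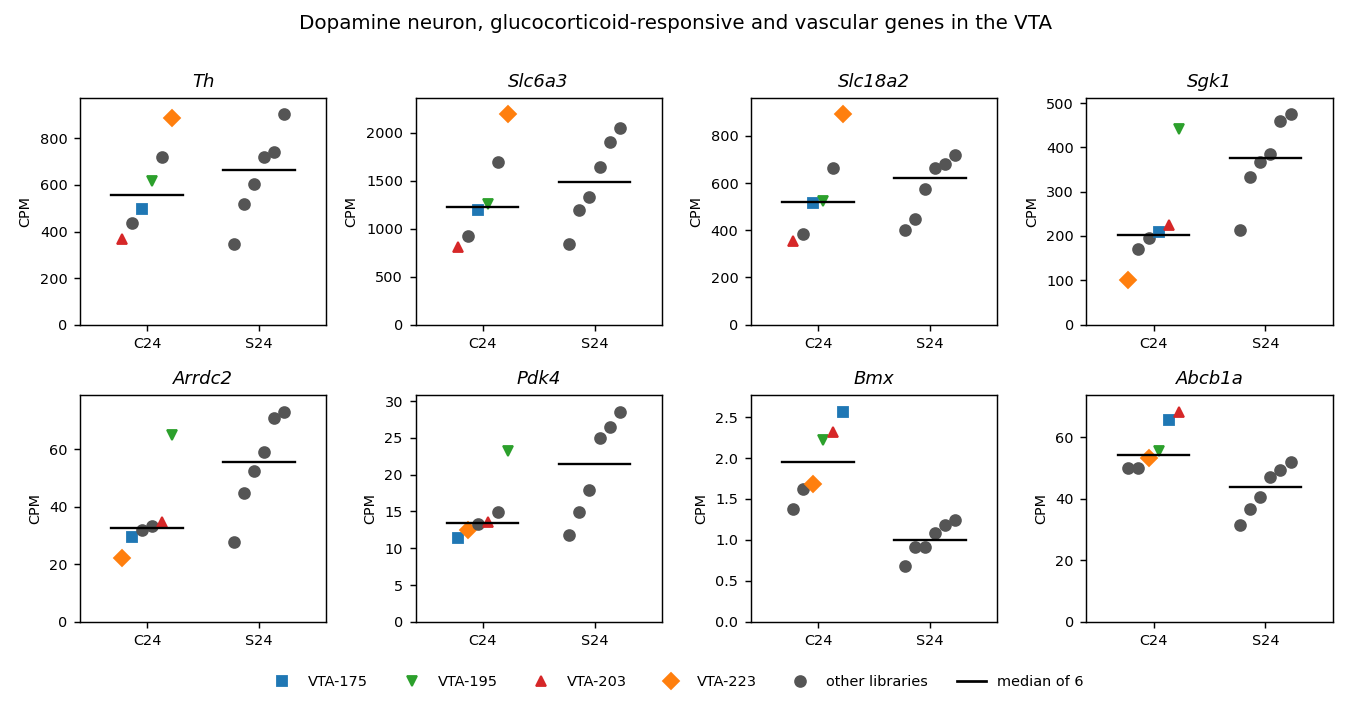
Levels in CPM, on linear axes from 0, of dopamine neuron genes (Th, Slc6a3, Slc18a2), glucocorticoid-responsive genes (Sgk1, Arrdc2, Pdk4) and vascular genes (Bmx, Abcb1a) in the VTA; each point is 1 library, C24 left and S24 right, and the bar is the median of 6. The ranges of both groups overlap for Th, Slc6a3 and Slc18a2, VTA-195 is the high C24 library for the glucocorticoid-responsive genes, and the groups do not overlap for Bmx.

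Chaperone and mitochondrial genes had many small negative values. Of 28 heat shock and folding genes 25 were negative, with a median of -0.08 and 1 passing an unadjusted p of 0.05; that gene was Hspa5, the chaperone of the endoplasmic reticulum, at 190 to 233 CPM in C24 and 209 to 320 CPM in S24 (fold change -0.20 ± 0.10, and -0.12 without VTA-182). Of 47 nuclear genes of oxidative phosphorylation 45 were negative and none passed, with a median of -0.06. Of 16 oligodendrocyte markers 15 were negative and none passed, with a median of -0.08. Single S24 libraries set part of these small medians: without VTA-182 that of the heat shock list was -0.04, and without VTA-191 that of oxidative phosphorylation was -0.01. Without the C24 libraries VTA-171 and VTA-223 the oligodendrocyte median was -0.13 and -0.03. In the limma voom fit of all regions the heat shock median was -0.08 in the VTA and -0.09 over the other regions. The values were -0.06 and -0.07 for oxidative phosphorylation, and -0.09 and 0.16 for oligodendrocyte markers.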

How the data were processed

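RNA of 6 brain regions was sequenced in 230 libraries; the 12 VTA libraries at 24 h of withdrawal were grouped by the labels. The molecule label names polyA RNA, while the labels' protocols describe ribosomal RNA depletion before a ScriptSeq kit. The authors deposited raw counts of reads per gene, made with HTSeq on mm10, per the submitters' processing notes; the aligner, annotation release and strand setting are not given in the sources used here. Of 43346 gene IDs, 42462 had a symbol in GENCODE M21. Mitochondrial genes were listed at 0.

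Counts were fitted with edgeR 4.0.16 (R 4.3.3; quasi-likelihood test, robust; filterByExpr minimum 10, total 15; TMM) over all 31 VTA libraries in 6 groups, with Benjamini-Hochberg adjustment over all genes tested and a threshold of 0.05. The contrast with other regions used limma 3.58.1 voom. Alternatives used DESeq2 1.42.0, sva 3.50.0, covariates and leaving out libraries. The fits were tested on simulated data. Totals of 19570662 to 32520635 counts set the precision. Lists are described by counts and medians with no test of their own, and list members and named genes were chosen with earlier results of these data known. Named genes are those called, the 10 with the smallest p-values and no overlap in each direction at a mean of at least 1 CPM, 2 or more per list by p-value and level, and a fixed set; Acta2, Alas2, Arrdc2, Fkbp5, Gbp11, Gvin1, Irf1, Myh11, Pdk4, Slc13a4, Sp110, Tagln, Tgtp1 and Tgtp2 were picked after their values were seen.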

Additional observations from a re-analysis of the deposited data

Results flagged for a closer look

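In 242 groups of 6 libraries the highest or lowest library was compared with the rest, and 20 stood apart, with a gap to the nearest over Dixon's 95% critical value. Chance gives about 1 in 20 for independent groups. These groups overlap, since single genes and the lists that hold them were both counted, so the rate is no measure of the 20. VTA-175 accounted for 9 of the 20, and was known beforehand to carry leptomeningeal transcripts. Its levels were highest in C24 for Kcne4 (4.17 CPM, next 1.614), S100a8 (7.98 CPM, next 1.35), Tbx18 (7.82 CPM, next 1.732), Igf2 (289 CPM, next 30.84), Hbb-bs (903.5 CPM, next 122.4) and Lepr (13.63 CPM, next 7.167). Among mean log2 levels of lists, VTA-175 was highest in C24 for blood cell markers (5.878, next 3.528) and leptomeningeal markers (5.048, next 2.111), and lowest for ionotropic glutamate receptors (5.704, next 5.815).

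VTA-195 stood apart in C24 4 times: its Isl1 was highest (0.1514 CPM, next 0.0401), its Tph2 lowest (1.413 CPM, next 18.77), and its mean log2 levels were lowest for the GABA neuron list (4.859, next 5.114) and the serotonin neuron list (1.274, next 2.512). VTA-171 had the highest Irgq in C24 (156.4 CPM, next 146.7).

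Among S24 libraries, VTA-191 was highest for Gbp9 (3.718 CPM, next 2.94) and in the mean log2 level of guanylate-binding proteins (2.159, next 1.7) and immunity-related GTPases (1.996, next 1.569). VTA-182 was highest for heat shock and folding genes (6.499, next 6.293), VTA-193 for leptomeningeal markers (2.806, next 2.011), and VTA-205 lowest for oligodendrocyte markers (8.156, next 8.378).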

How the results depend on the processing

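Gbp9 was the only gene called with all libraries, and it kept a positive fold change under every alternative run. It was again the 1 gene called with DESeq2 size factors, with DESeq2, without a filter on low counts and with the dopamine neuron level as a covariate. No gene was called with limma voom (0; Gbp9 0.81), in a fit of the 12 libraries alone (0; Gbp9 0.87), with 2 surrogate variables (0; Gbp9 0.75) or with the blood cell level as a covariate (0; Gbp9 0.84), and its adjusted p was then 0.173, 0.9998, 0.9997 and 0.227. The fit of 12 estimates the spread without the other VTA groups. Why the call was lost in each of these fits was not tested. On leaving out each library in turn the number called ran from 0 to 1 and the Gbp9 fold change from 0.69 to 0.97. Without VTA-175, DESeq2 called 1 gene and limma voom 0, both chosen after seeing the data. No gene differed between the VTA and the other regions without a filter (0), with sample quality weights (0), without VTA-175 (0) or with the title number as a replicate block, set as a correlation (0) or, chosen after seeing the data, as a fixed effect (0). At an unadjusted p under 0.05 limma voom gave 169 genes in this contrast, 159 without VTA-175, 487 with quality weights, 1103 without a filter and 224 with the fixed block. Deviations from the group mean were correlated between VTA libraries and libraries of other regions. Pairs of the same number had a median r of 0.074 (from -0.14 to 0.272), and 21 of 56 lay over 0.1. The 394 pairs of different numbers had a median r of -0.0095. In 24 of 56 comparisons of a VTA library with a region, the library of its own number correlated best. These values do not settle whether a number marks a mouse. Of 2403 alternative values of single genes and lists, 2386 moved by less than the spread and 17 moved more. None of the called values reversed. A move smaller than the spread could still change the sign of a fold change near 0. That of Fos did so in 8 of 20 alternatives and that of Slc17a6 in 7 of 20. With 6 libraries a group, a difference that missed the threshold is not shown to be absent, and genes near 1 CPM rest on few reads.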
